A study of Homo sapiens with 12 samples.

Results

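The 10 genes described here encode enzymes that make, lengthen, desaturate and activate fatty acids: ACLY, ACSS2, ACACA, FASN, SCD, FADS1, FADS2, ELOVL5, ELOVL6 and ACSL3. They were chosen by name among the 18969 genes of the expression tables, and all 10 were listed there. All 10 were also among the 12741 genes with enough counts to be tested, and the lowest expected count of any of them in a library was 184, for FADS2. The cells were HCT116, a widely used human colorectal carcinoma line, and RNA was sequenced in 3 groups of 4 libraries each. In the UNC0642 recovery group, cells spent 24 h in methionine-free RPMI-1640 with fetal bovine serum and UNC0642, an inhibitor of the histone H3 lysine methyltransferases EHMT1 and EHMT2. They were then washed and kept for 24 h in methionine-replete medium with no inhibitor. The DMSO recovery group went through the same restriction and recovery, with DMSO named in place of the inhibitor. The third group is named 0 h, and the labels do not say whether its cells were taken before the restriction or at its end. All groups share the one cell line and serum in the medium, and the dose of UNC0642 is not given in the sources used here. Nothing in the labels says that replicates are separate cultures. The p-values below therefore reflect only how far these libraries spread, which may be technical.

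Fatty acids are built in the cytosol from acetyl-CoA, which ATP citrate lyase (ACLY) makes from citrate and ACSS2 makes from acetate. ACACA carboxylates acetyl-CoA to malonyl-CoA, the step that commits carbon to the pathway, and FASN joins these units into the saturated fatty acid palmitate. ELOVL6 lengthens saturated and monounsaturated chains, SCD places the first double bond that yields oleate, FADS2 and FADS1 desaturate polyunsaturated chains taken up from outside, and ELOVL5 lengthens those chains between the desaturase steps. ACSL3 couples fatty acids to coenzyme A for use in membrane lipids and lipid droplets. Most of these genes are known targets of the sterol-regulated transcription factors encoded by SREBF1 and SREBF2, which INSIG1 helps to hold in the endoplasmic reticulum.

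Expected counts summed to 14658082 to 20179847 per library. The colorectal label was checked against 8 epithelial markers: EPCAM, KRT8, KRT18, KRT19, CDH1 and CDX2 were present in every library, while VIL1 and LGR5 stayed under 1 CPM (counts scaled to a common library total). The summed level of the 8 markers was 5684 to 5846 CPM after UNC0642 recovery, 5640 to 5761 CPM after DMSO recovery and 4814 to 4916 CPM at 0 h. KRT8, KRT18 and KRT19 made up most of this sum. This and the marker sums below used plain library totals, without the TMM scaling of edgeR's test. TMM factors were 0.973 to 0.976 at 0 h and 1.01 to 1.02 after recovery. On the test's scale the gap to 0 h is therefore narrower. Against 0 h, 5 of the 6 markers present were called higher in both recovery groups (adjusted p under 0.05 in edgeR's test), as were most of the fatty acid genes, while EPCAM was called lower after UNC0642 recovery (log2 -0.18, adjusted p = 2.01e-07) and after DMSO recovery (log2 -0.10, adjusted p = 8.47e-04). The part of these markers in the result of the fatty acid genes was not tested. Of 6 markers of adipocytes, the cell type best known for storing fat, 5 stayed under 1 CPM in every library, and their sum was 0.895 to 1.67, 1.04 to 1.55 and 0.548 to 1.36 CPM in UNC0642 recovery, DMSO recovery and 0 h libraries. Of 5 hepatocyte markers 4 stayed under 1 CPM, with sums of 1.62 to 2.95, 1.87 to 2.72 and 1.09 to 1.71 CPM in the same order. Fibroblast markers summed to 26.5 to 35.4, 25.5 to 34.9 and 19.2 to 38.7 CPM, blood markers to 9.13 to 12.1, 8.37 to 10.4 and 8.73 to 11.7 CPM, and endothelial markers to 0.391 to 0.702, 0.396 to 0.964 and 0 to 0.353 CPM. COL1A1 and CD68 carried most of the fibroblast and blood sums. In DMSO recovery against 0 h, COL1A2 (log2 -2.49), COL3A1 (-1.95), DCN (-2.53), HBA1 (-1.36), HBA2 (-1.68) and HBB (-1.72) were called lower, with HBA1 (-1.02) and HBB (-1.79) also called lower in UNC0642 recovery against 0 h, and their part in the result was not tested. In the deposited tables, effective length was shorter than gene length by 101 to 106 bases in 5 libraries (short gap: UNC0642 recovery 1 and 4, DMSO recovery 1, 0 h 3 and 4) and by 120 to 127 bases in the other 7 (long gap). In 6 libraries (UNC0642 recovery 3 and 4, DMSO recovery 1, 0 h 1, 2 and 3) the fibroblast gene COL1A2 exceeded 1 CPM, so both splits cut across the groups.

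Because all 10 genes were called higher after DMSO recovery than at 0 h, the promoters of a few of them are shown to give the letters around their start sites. RefSeq promoter windows (GRCh38.p14, 250 bases before to 50 bases after a start) were matched by symbol for 9 of the 10 genes, in 14 windows. FASN was not matched. SCD is shown as one of the genes with the larger rises after DMSO recovery, ELOVL5 as one that did not differ between the recovery groups beyond the test's threshold, and FADS1 and FADS2 as neighbours, of which FADS1 alone passed that test. The windows are SCD at chr10:100346983-100347282 on the + strand, ELOVL5 at chr6:53348901-53349200 on the - strand, FADS1 at chr11:61816954-61817253 on the - strand and the second FADS2 window at chr11:61816154-61816453 on the + strand. Capitals mark matches, on either strand, to CCAAT (the NF-Y box), GGGCGG (a GC box bound by Sp1) and CACGTG (an E-box), and the windows read 5′ to 3′ on the gene's strand.
SCD: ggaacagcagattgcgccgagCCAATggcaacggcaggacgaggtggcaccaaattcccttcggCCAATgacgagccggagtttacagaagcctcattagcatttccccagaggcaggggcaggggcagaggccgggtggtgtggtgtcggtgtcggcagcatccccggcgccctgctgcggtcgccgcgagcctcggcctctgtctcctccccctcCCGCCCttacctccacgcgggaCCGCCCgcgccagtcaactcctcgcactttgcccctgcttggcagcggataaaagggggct
ELOVL5: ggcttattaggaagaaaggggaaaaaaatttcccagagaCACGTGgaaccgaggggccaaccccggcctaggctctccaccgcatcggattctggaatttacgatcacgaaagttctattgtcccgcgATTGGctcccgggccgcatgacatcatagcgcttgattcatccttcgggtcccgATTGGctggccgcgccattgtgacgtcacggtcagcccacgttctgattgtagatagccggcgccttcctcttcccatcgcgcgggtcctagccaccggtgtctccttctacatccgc
FADS1: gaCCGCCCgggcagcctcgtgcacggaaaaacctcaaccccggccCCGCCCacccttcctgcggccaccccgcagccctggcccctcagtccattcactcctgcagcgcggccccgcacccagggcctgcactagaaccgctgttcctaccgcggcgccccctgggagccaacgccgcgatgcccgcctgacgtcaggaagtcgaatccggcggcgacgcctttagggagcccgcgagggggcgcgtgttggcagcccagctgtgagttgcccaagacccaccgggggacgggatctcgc
FADS2: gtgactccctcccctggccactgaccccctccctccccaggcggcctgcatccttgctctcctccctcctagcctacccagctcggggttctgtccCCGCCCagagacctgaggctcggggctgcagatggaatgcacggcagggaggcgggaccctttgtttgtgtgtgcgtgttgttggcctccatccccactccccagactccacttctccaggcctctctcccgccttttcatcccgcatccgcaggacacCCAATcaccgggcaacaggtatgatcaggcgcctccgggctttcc
CCAAT was found in 9 of the 14 windows, covering 7 of the 9 genes, and in 34.6% of all 35116 RefSeq windows of the same length. GGGCGG was found in 11 windows of 8 genes and in 45% of all windows, and CACGTG in the ELOVL5 window alone and in 7.26% of all. The shares are per window, so they stand beside the window counts and not beside the gene counts. The 2 ACLY windows overlap and hold the same matches, which are thus counted in each. These 3 motifs do not overlap one another as strings, though neighbouring GGGCGG matches can run together, as they do in ACACA. The form TCACNCCAC of the sterol regulatory element was in none of the 14 windows and in 1.13% of all, which says only that these letters are not in these windows. The annotated FADS1 and FADS2 transcripts run toward each other: the start of FADS2 in the window shown lies 599 bases from that of FADS1, and its other start 800 bases. Since the strand used in counting is not given in the sources used here, any reads from the stretch between these starts cannot be told apart. Whether both genes have exons there in the hg18 annotation used for counting was not checked.

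Levels between genes were compared per length of transcript, in FPKM (fragments scaled for transcript length and library total). FASN was the most abundant of the 10, at 247 ± 9.2 FPKM after UNC0642 recovery, 280.2 ± 7.9 FPKM after DMSO recovery and 186 ± 8.9 FPKM at 0 h (SD, n = 4 each). Among all 18969 genes ranked by mean FPKM it stood at place 290 after UNC0642 recovery, 253 after DMSO recovery and 447 at 0 h. SCD came next with 216 ± 7.7, 254 ± 7.1 and 144 ± 4.1 FPKM in the same groups, and ACLY followed with 116 ± 2.5, 123 ± 0.31 and 103 ± 1.0 FPKM. ELOVL5 (45.2, 45.6 and 31.0 FPKM), ACSL3 (34.1, 37.4 and 30.6 FPKM) and ACACA (25.3, 28.4 and 22.6 FPKM) formed the middle of the order. The lowest levels were those of ELOVL6 (17.97, 20.5 and 16.4 FPKM), FADS1 (17.7, 20.2 and 13.3 FPKM), ACSS2 (10.1, 10.7 and 6.75 FPKM) and FADS2 (7.24, 7.21 and 4.14 FPKM). The order of the 10 means was the same in all 3 groups, but some neighbours in it did not separate: the libraries of ELOVL6 and FADS1 overlapped in both recovery groups, and those of ELOVL5 and ACSL3 overlapped at 0 h.

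**Figure D1:**
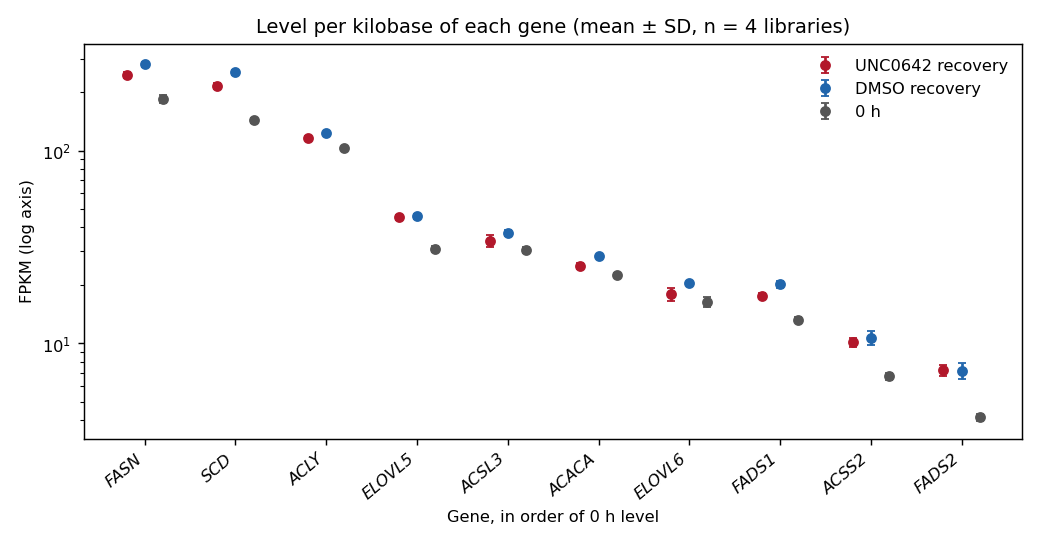
Mean FPKM ± SD over 4 libraries of each of the 10 genes, on a log axis, in order of the 0 h level. FASN, SCD and ACLY lie above 100 FPKM in all 3 groups, and FADS2 lies lowest in each.

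The first comparison asks how the genes stood after recovery from methionine restriction without the inhibitor. All 10 rose in DMSO recovery cells relative to 0 h, and in all 10 every DMSO recovery library lay above every 0 h library. Across all 12741 genes tested, 22.4% were called higher and 21.7% lower in this comparison (edgeR's quasi-likelihood test, Benjamini-Hochberg adjusted p under 0.05, which is what "called" means here). Groups without overlap in CPM made up 19.3% of genes upward and 19.0% downward. The rises ran in log2 fold change from 0.20 in ACLY to 0.77 in SCD, with a median of 0.52, where the median of all genes tested was 0.007. The second comparison asks what the earlier presence of UNC0642 changed. Relative to DMSO recovery cells, 7 of the 10 genes were lower in UNC0642 recovery cells and 3 did not pass the test, where 2.53% of all genes were called lower and 2.06% higher. In 6 of those 7 the groups did not overlap, against 5.42% of all genes in that direction and 5.05% in the other, and the median of the 10 was -0.15 against -0.001 over all genes. Relative to 0 h, 9 of the 10 were higher in UNC0642 recovery cells, where 23.4% of all genes were called higher and 23.6% lower. In 8 of them the groups did not overlap, against 20.1% of all genes upward and 20.1% downward, and the median of the 10 was 0.35 against 0.006. Within the long gap libraries, within the short gap libraries and without those with COL1A2, the count of genes higher after DMSO recovery than at 0 h was 10, 10 and 10, and after UNC0642 recovery than at 0 h 9, 7 and 6. The count lower with UNC0642 than with DMSO was 3, 3 and 3 under these settings, namely SCD, FASN and ACACA. Only 1 library of DMSO recovery was in the short gap class, and only 1 of 0 h remained without those with COL1A2. Counts that rest on these assume that such a group varies like the others. The comparisons share libraries, so their values are given side by side and not as evidence for each other. Because RNA was measured as a share of each library, fewer cells of a kind and less RNA per cell cannot be told apart.

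**Figure D2:**
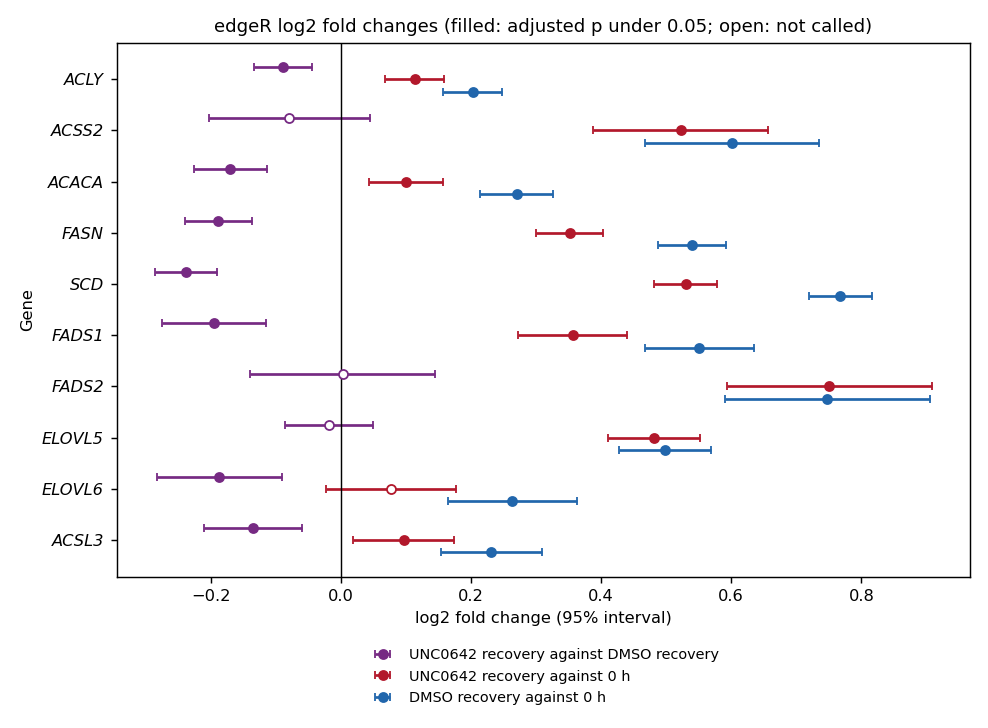
Log2 fold changes with 95% intervals for the 10 genes (rows) in the 3 comparisons (colours), with filled points for adjusted p under 0.05. Every DMSO recovery value against 0 h lies right of 0, and ACSS2, FADS2 and ELOVL5 have open points in UNC0642 against DMSO recovery.

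Of the 2 sources of acetyl-CoA, ACSS2 moved further than ACLY after recovery, and ACLY was the one that passed the test between the recovery groups. Levels within a gene are given as CPM, library by library from replicate 1 to 4. ACLY had 469.9, 487, 488 and 489.9 CPM in UNC0642 recovery libraries, 517, 511, 513 and 516 CPM in DMSO recovery libraries, and 441, 451, 449 and 447 CPM in 0 h libraries. The 3 groups stood apart without overlap, with DMSO recovery highest and 0 h lowest. The log2 fold change of ACLY was 0.20 ± 0.02 (SE) for DMSO recovery against 0 h (adjusted p = 4.93e-09), -0.09 ± 0.02 for UNC0642 against DMSO recovery (adjusted p = 0.0126) and 0.11 ± 0.02 for UNC0642 recovery against 0 h (adjusted p = 7.98e-05). The middle call was lost without UNC0642 recovery replicate 1, the lowest of its group (-0.07, adjusted p = 0.0699). It was also lost within the long gap libraries (-0.07, adjusted p = 0.201), within the short gap libraries (-0.11) and without the 6 libraries with COL1A2 (-0.10). The last was lost after adjustment for transcript length and GC content (0.05, adjusted p = 0.0528) and without the 6 libraries with COL1A2 (0.09, adjusted p = 0.111).

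ACSS2 had 26.6, 28.1, 30.2 and 29.5 CPM in UNC0642 recovery libraries, 28.0, 31.5, 33.2 and 28.4 CPM in DMSO recovery libraries, and 20.01, 20.4, 18.6 and 20.6 CPM in 0 h libraries. Both recovery groups lay above 0 h and overlapped each other. Its level was 1.52-fold higher after DMSO recovery than at 0 h (log2 0.60 ± 0.07, adjusted p = 4.41e-09) and 1.44-fold higher after UNC0642 recovery than at 0 h (log2 0.52 ± 0.07, adjusted p = 6.81e-08). Between the recovery groups the log2 difference was -0.08, with a 95% interval of -0.20 to 0.04 (adjusted p = 0.552), an interval that reaches past the -0.09 of ACLY. The ratio of ACLY to ACSS2 in FPKM was 11.5 ± 0.46 after UNC0642 recovery, 11.6 ± 1.0 after DMSO recovery and 15.2 ± 0.78 at 0 h (SD, n = 4 each). In each library after recovery it was below every 0 h library (two-sided exact permutation test, p = 0.0286 for each recovery group against 0 h, the smallest that 4 against 4 allows). Between the recovery groups the exact permutation test gave p = 0.914. This ratio and 4 others of member pairs were formed by role, with earlier results of these data known, and the 15 tests on them gave an adjusted p (Benjamini-Hochberg over permutation tests) of 0.0390 wherever the raw p was 0.0286.

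ACACA and FASN, the enzymes of chain building, rose together after recovery, FASN further than ACACA, and both were lower with UNC0642. ACACA had 229, 245, 241 and 229 CPM in UNC0642 recovery libraries, 268, 268, 268 and 259 CPM in DMSO recovery libraries, and 216, 224, 224 and 217 CPM in 0 h libraries. FASN had 1933, 2067, 2088 and 2027 CPM in UNC0642 recovery libraries, 2243, 2368, 2350.3 and 2285 CPM in DMSO recovery libraries, and 1507, 1582, 1692 and 1580.1 CPM in 0 h libraries. For both genes the 3 groups stood in the same order without overlap, with UNC0642 recovery between DMSO recovery and 0 h. ACACA was higher by 0.27 ± 0.03 on the log2 scale after DMSO recovery than at 0 h (adjusted p = 1.33e-09), differed by -0.17 ± 0.03 between UNC0642 and DMSO recovery (adjusted p = 7.16e-05) and by 0.10 ± 0.03 between UNC0642 recovery and 0 h (adjusted p = 0.00372). FASN was higher by 0.54 ± 0.03 after DMSO recovery than at 0 h (adjusted p = 8.94e-18), by 0.35 ± 0.03 after UNC0642 recovery than at 0 h (adjusted p = 4.47e-13), and differed by -0.19 ± 0.03 between UNC0642 and DMSO recovery (adjusted p = 3.63e-06). FASN alone came to 0.203% of the TMM-scaled library total after UNC0642 recovery, 0.231% after DMSO recovery and 0.159% at 0 h.

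The rises of FASN were the ones that moved most with that adjustment for length and GC content, to 0.32 (DMSO recovery against 0 h) and 0.14 (UNC0642 recovery against 0 h), both still called. The call for ACACA in UNC0642 recovery against 0 h was lost within the libraries of short gap (0.06, adjusted p = 0.252) and without those with COL1A2 (0.12, adjusted p = 0.0865). The ratio of ACACA to FASN in FPKM was 0.102 ± 0.0023 after UNC0642 recovery, 0.101 ± 0.0027 after DMSO recovery and 0.122 ± 0.0044 at 0 h (SD, n = 4 each). It was lower in both recovery groups than at 0 h (exact permutation p = 0.0286 each), and the test between the recovery groups gave p = 0.486. This ratio was not recomputed with the length and GC adjustment.

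**Figure D3:**
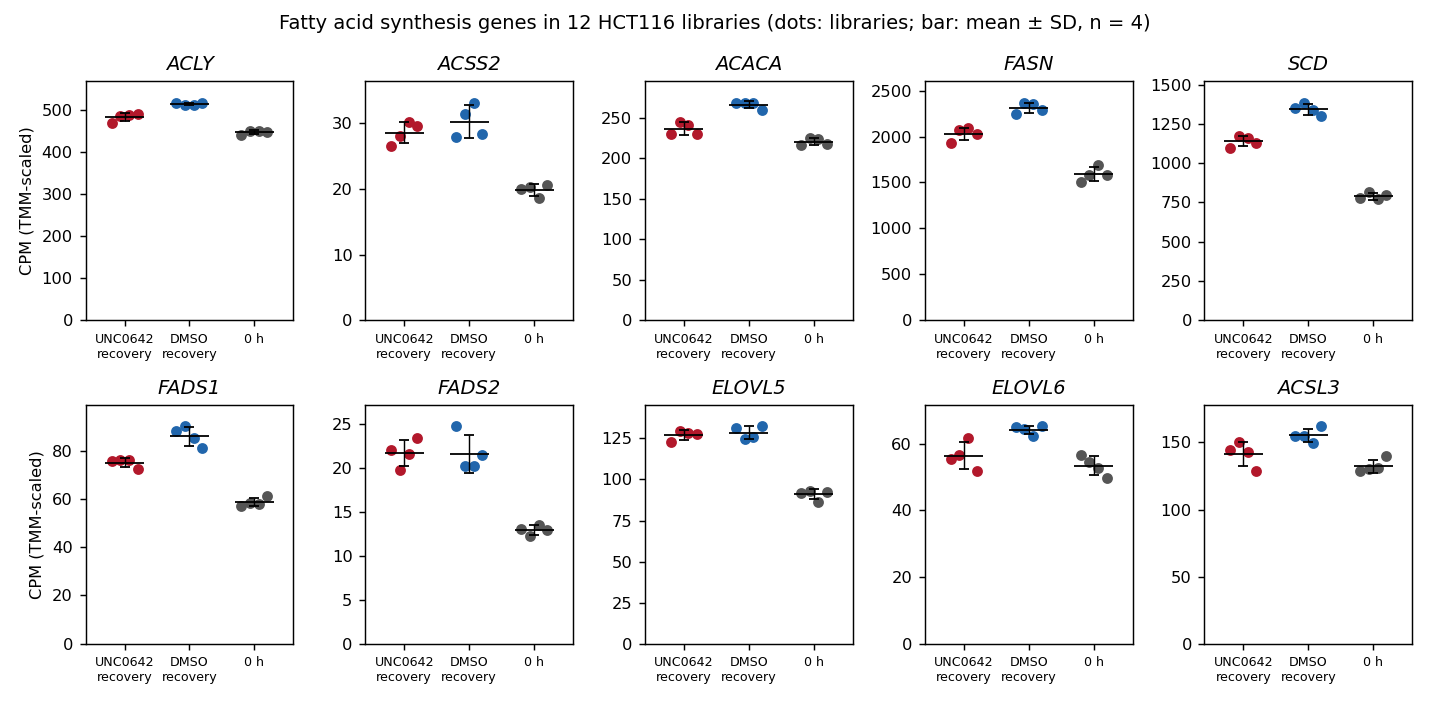
CPM of the 10 genes in each library (dots) with the group mean ± SD (n = 4), one panel per gene, axes from 0. In ACLY, ACACA, FASN, SCD and FADS1 the UNC0642 recovery dots lie between those of DMSO recovery and 0 h, while in ACSS2, FADS2, ELOVL5 and ACSL3 the recovery groups overlap.

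SCD, the desaturase that makes monounsaturated fatty acids, was, with FADS2, among the genes that rose most after DMSO recovery, and it was lower with UNC0642 than with DMSO. Its level was 1099, 1177, 1160.4 and 1130.0 CPM in UNC0642 recovery libraries, 1355, 1386, 1341 and 1301 CPM in DMSO recovery libraries, and 775, 818, 769 and 799.9 CPM in 0 h libraries. No library of one group reached the range of another. SCD was 1.70-fold higher after DMSO recovery than at 0 h (log2 0.77 ± 0.02, adjusted p = 7.01e-23) and 1.44-fold higher after UNC0642 recovery than at 0 h (log2 0.53 ± 0.02, adjusted p = 1.44e-18). In UNC0642 recovery cells it was 1.18-fold lower than in DMSO recovery cells (log2 -0.24 ± 0.02, adjusted p = 6.68e-09), rank 12088 of 12741 genes ordered from the highest to the lowest log2 fold change. Over 25 alternative settings this last value ran between -0.28 and -0.20 and remained called in each. RefSeq lists a pseudogene of SCD, SCDP1, and any sharing of reads with it was not tested. The ratio of SCD to FASN in FPKM was 0.885, 0.888, 0.866 and 0.868 in UNC0642 recovery libraries, 0.941, 0.913, 0.890 and 0.888 in DMSO recovery libraries, and 0.802, 0.806, 0.708 and 0.788 in 0 h libraries. The recovery groups met at their edges, and both lay above 0 h (exact permutation p = 0.0286 for each of the 3 comparisons).

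FADS1 and FADS2, which act in turn on polyunsaturated chains, both rose after recovery but differed in whether UNC0642 moved them past the threshold. FADS1 had 75.8, 76.2, 76.0 and 72.5 CPM in UNC0642 recovery libraries, 88.0, 90.1, 85.3 and 81.0 CPM in DMSO recovery libraries, and 57.3, 58.4, 58.1 and 61.2 CPM in 0 h libraries. FADS2 had 22.0, 19.7, 21.6 and 23.4 CPM in UNC0642 recovery libraries, 24.7, 20.2, 20.2 and 21.4 CPM in DMSO recovery libraries, and 13.0, 12.2, 13.6 and 12.9 CPM in 0 h libraries. The 3 groups of FADS1 did not overlap, whereas FADS2 overlapped between the recovery groups and was low only at 0 h. FADS1 was higher by 0.55 ± 0.04 (log2) after DMSO recovery than at 0 h (adjusted p = 9.19e-13) and by 0.36 ± 0.04 after UNC0642 recovery than at 0 h (adjusted p = 1.37e-08). Between UNC0642 and DMSO recovery it differed by -0.20 ± 0.04 (adjusted p = 0.00137). That last call was lost within the libraries of long gap (-0.16, adjusted p = 0.0970), within those of short gap (-0.25, adjusted p = 0.0693) and without those with COL1A2 (-0.17, adjusted p = 0.0969).

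FADS2 was 1.68-fold higher than at 0 h after either recovery (log2 0.75 ± 0.08 with DMSO, adjusted p = 1.52e-09, and 0.75 ± 0.08 with UNC0642, adjusted p = 1.10e-09). Between UNC0642 and DMSO recovery the log2 difference was 0.003, with a 95% interval of -0.14 to 0.15 (adjusted p = 0.994). That interval overlaps the one of FADS1, which was -0.27 to -0.12, so the pair was tested on its ratio. The FPKM ratio of FADS1 to FADS2 was 2.43, 2.72, 2.48 and 2.19 in UNC0642 recovery libraries, 2.51, 3.14, 2.98 and 2.66 in DMSO recovery libraries, and 3.10, 3.37, 3.02 and 3.35 in 0 h libraries. The recovery groups overlapped (exact permutation p = 0.114), DMSO recovery overlapped 0 h (p = 0.0857 in the exact permutation test), and UNC0642 recovery lay wholly below 0 h (exact permutation p = 0.0286). The annotated spans overlap over the stretch described above, so the 2 levels may not be fully separate measurements.

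The elongases ELOVL5 and ELOVL6 differed in how their levels changed between the groups, by the test of their ratio given below. That ratio was not recomputed under the alternative settings. ELOVL5, which lengthens polyunsaturated chains, had 122, 129, 129 and 127 CPM in UNC0642 recovery libraries, 132, 124, 126 and 132 CPM in DMSO recovery libraries, and 92.0, 92.8, 86.4 and 92.4 CPM in 0 h libraries. ELOVL6, which lengthens saturated and monounsaturated chains, had 55.4, 56.5, 61.7 and 51.7 CPM in UNC0642 recovery libraries, 64.8, 64.3, 62.4 and 65.1 CPM in DMSO recovery libraries, and 56.6, 54.4, 52.6 and 49.8 CPM in 0 h libraries. ELOVL5 was high in both recovery groups, which overlapped, while ELOVL6 was high only in DMSO recovery, with UNC0642 recovery overlapping 0 h. ELOVL5 was 1.41-fold higher after DMSO recovery (log2 0.50 ± 0.03, adjusted p = 1.80e-13) and 1.40-fold higher after UNC0642 recovery (log2 0.48 ± 0.03, adjusted p = 3.79e-13) than at 0 h. The log2 difference between the recovery groups was -0.02, with a 95% interval of -0.09 to 0.05 (adjusted p = 0.852).

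ELOVL6 was higher by 0.26 ± 0.05 (log2) after DMSO recovery than at 0 h (adjusted p = 4.22e-05) and 1.14-fold lower with UNC0642 than with DMSO (log2 -0.19 ± 0.05, adjusted p = 0.0151). Against 0 h the UNC0642 recovery value was 0.08, with a 95% interval of -0.02 to 0.18 (adjusted p = 0.205). With 1 library left out at a time this value ran between 0.03 (without UNC0642 recovery replicate 3) and 0.11 (without UNC0642 recovery replicate 4), and it was called in none of the 8 fits. Both of the last results of this gene turn on single choices. The difference between the recovery groups was lost without UNC0642 recovery replicate 1 (-0.18, adjusted p = 0.0516) or replicate 4 (-0.15, adjusted p = 0.0800). It was also lost on the FPKM scale, within either gap class and without the libraries with COL1A2 (-0.19). The value against 0 h became called with library totals as the only scaling (0.14, adjusted p = 0.0247) and with the length and GC adjustment (0.14, adjusted p = 0.0144). The FPKM ratio of ELOVL5 to ELOVL6 was 2.44, 2.55, 2.34 and 2.76 in UNC0642 recovery libraries, 2.25, 2.16, 2.24 and 2.26 in DMSO recovery libraries, and 1.80, 1.91, 1.84 and 2.06 in 0 h libraries. The 3 groups did not overlap, and the ratio was highest after UNC0642 recovery and lowest at 0 h (exact permutation p = 0.0286 for each of the 3 comparisons).

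**Figure D4:**
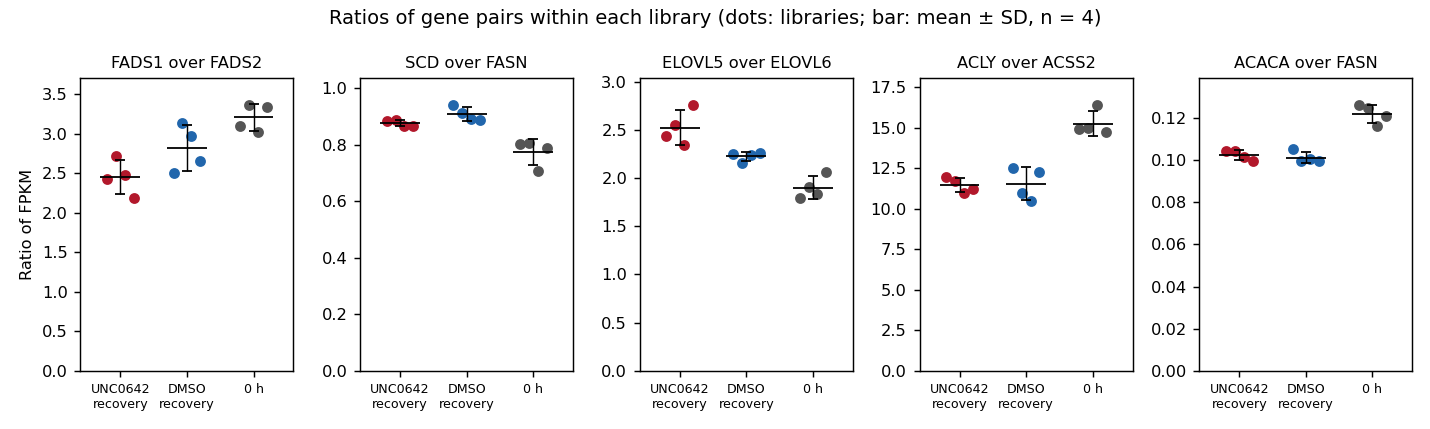
Ratios of FPKM between 2 member genes within each library (dots), with the group mean ± SD (n = 4), axes from 0. ELOVL5 over ELOVL6 is highest in UNC0642 recovery libraries (2.34 to 2.76), while ACLY over ACSS2 and ACACA over FASN are highest at 0 h.

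ACSL3, which activates fatty acids at the endoplasmic reticulum and lipid droplets, showed the calls that held least often. It had 144, 150.0, 143 and 129 CPM in UNC0642 recovery libraries, 154, 155, 149.7 and 162 CPM in DMSO recovery libraries, and 129, 130.3, 131 and 139.5 CPM in 0 h libraries. DMSO recovery lay above 0 h without overlap, and UNC0642 recovery spanned from the low end of 0 h to the low end of DMSO recovery. The log2 fold change was 0.23 ± 0.04 for DMSO recovery against 0 h (adjusted p = 7.14e-06), -0.13 ± 0.04 for UNC0642 against DMSO recovery (adjusted p = 0.0271) and 0.10 ± 0.04 for UNC0642 recovery against 0 h (adjusted p = 0.0367). The call against DMSO recovery was lost without DMSO recovery replicate 2 or 4 or UNC0642 recovery replicate 3 or 4, with adjusted p of 0.0554 to 0.147. It was also lost on the FPKM scale, within the long gap libraries (-0.09, adjusted p = 0.418), within the short gap libraries (-0.18, adjusted p = 0.197) and without the libraries with COL1A2 (-0.08, adjusted p = 0.429). That against 0 h was lost without 0 h replicate 1, 2 or 3 or UNC0642 recovery replicate 1, 2 or 3, with adjusted p of 0.0766 to 0.163. It was also lost in DESeq2 (0.09, adjusted p = 0.0647), within the short gap libraries (0.01, adjusted p = 0.858) and without the libraries with COL1A2 (0.07, adjusted p = 0.411). RefSeq also places an antisense RNA, ACSL3-AS1, over this gene, and reads from any exons they share cannot be told apart without strand. Spans of other annotated genes likewise overlap ACLY, ACACA, FASN, ELOVL5 and ELOVL6, besides the FADS pair, and any sharing of reads was not tested.

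Profiles over the 12 libraries were compared by the root mean square distance between log2 CPM values centred on the 0 h mean. Of the 10 genes, FASN and FADS1 followed the mean of all 10, themselves included, most closely (distance 0.061 and 0.062). They ranked 14 and 15 among the 12741 genes tested. FADS2 lay farthest from that mean (0.296, rank 4013), and the rest ranked from 137 (ELOVL5) to 1759 (SCD). ACLY and ACACA were each other's nearest member (0.049), as were FASN and FADS1 (0.058). ELOVL6 and ACSL3 were both nearest to ACACA, and FADS2 was nearest to SCD (0.166). Outside the 10, the genes nearest to their mean profile were EMP2 (0.043), SREBF2 (0.046), CDH3 (0.049), SH3PXD2B (0.050) and FTL (0.051).

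Genes of a wider list, in fatty acid synthesis or bordering it (ACAT1 among the latter), moved in both directions. The genes of this list numbered 35 in the deposited data, and 27 of them were tested. Of these, 13 rose and 5 fell after DMSO recovery relative to 0 h, with a median log2 fold change of 0.12. Between UNC0642 and DMSO recovery 1 was higher and 2 were lower (median 0.01), and between UNC0642 recovery and 0 h 12 were higher and 4 lower (median 0.11). The 5 that fell after DMSO recovery were ACSL5, ACAT1 (log2 -0.28), OXSM (-0.43), ELOVL1 (-0.17) and MCAT (-0.13), and the 2 lower with UNC0642 than with DMSO were SCD5 (-0.15) and MCAT (-0.18, adjusted p = 0.0319). OXSM, ELOVL1 and MCAT are named here after their values were seen. OXSM and MCAT belong to the separate fatty acid synthesis of mitochondria, and ELOVL1 lengthens very long chains. The 1 gene higher with UNC0642 was ACSL5, an acyl-CoA synthetase of the same family as ACSL3. ACSL5 averaged 130 ± 1.9 CPM after UNC0642 recovery, 89.97 ± 1.2 CPM after DMSO recovery and 96.7 ± 2.7 CPM at 0 h (SD, n = 4 each). Its log2 fold change was 0.53 ± 0.03 for UNC0642 against DMSO recovery (adjusted p = 5.41e-14), the opposite direction to ACSL3, and -0.10 ± 0.03 for DMSO recovery against 0 h (adjusted p = 0.0119). ACSL4, of the same family, was higher by 0.30 ± 0.04 after DMSO recovery than at 0 h (adjusted p = 1.17e-06) and differed by -0.07 ± 0.04 between the recovery groups (adjusted p = 0.423).

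Close relatives of the members that rose after DMSO recovery included SCD5, ACACB, FADS3, ELOVL7, ACSL4, ACSL1 (log2 0.30) and ELOVL3 (log2 0.68). ELOVL1 and ACSL5 fell, and SCD5 was also lower with UNC0642 than with DMSO. ACSL1 and ELOVL3 are named here after their values were seen. SCD5, the second stearoyl-CoA desaturase, was higher by 0.28 ± 0.05 after DMSO recovery than at 0 h (adjusted p = 9.18e-06) and lower with UNC0642 than with DMSO (log2 -0.15 ± 0.04, adjusted p = 0.0405). ACACB, the acetyl-CoA carboxylase that regulates fatty acid oxidation, was higher by 0.45 ± 0.10 after DMSO recovery than at 0 h (adjusted p = 5.87e-04) and had a value of -0.06 ± 0.10 between the recovery groups (adjusted p = 0.816). FADS3 was higher by 0.15 ± 0.06 after DMSO recovery than at 0 h (adjusted p = 0.0370), and ELOVL7, an elongase of long saturated chains, by 0.51 ± 0.06 (adjusted p = 9.21e-08). The mitochondrial citrate carrier SLC25A1, which supplies the citrate that ACLY cleaves, was higher by 0.38 ± 0.04 (adjusted p = 8.89e-10) after DMSO recovery and had a value of -0.04 ± 0.04 between the recovery groups (adjusted p = 0.641).

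Among 15 genes that regulate lipid synthesis, all tested, 6 rose and 2 fell after DMSO recovery relative to 0 h, and 2 were lower in UNC0642 than in DMSO recovery. Those 2 were INSIG1 and SREBF2. INSIG1 averaged 53.2 ± 3.2 CPM after UNC0642 recovery, 78.6 ± 2.1 CPM after DMSO recovery and 37.5 ± 1.2 CPM at 0 h (SD, n = 4 each), a log2 fold change of -0.56 ± 0.04 between the recovery groups (adjusted p = 2.10e-11). SREBF2, the sterol-responsive factor whose profile lay near the mean of the 10, differed by -0.11 ± 0.03 (adjusted p = 0.0202). SREBF1, which is best known for driving fatty acid synthesis genes, averaged 209 ± 6.8, 209 ± 4.8 and 179.7 ± 4.9 CPM in the same groups with a log2 fold change of 0.0005 ± 0.03 between the recovery groups (adjusted p = 0.997). The carbohydrate-responsive factor MLXIPL was higher by 0.76 ± 0.07 after DMSO recovery than at 0 h (adjusted p = 3.37e-11) and had a value of -0.09 ± 0.06 between the recovery groups (adjusted p = 0.508).

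The cholesterol synthesis genes, which share the sterol-regulated factors, rose in 16 of 19 cases after DMSO recovery relative to 0 h (median 0.46), with 1 lower, and 12 of 19 were lower in UNC0642 than in DMSO recovery (median -0.23), with 0 higher. Against 0 h, 12 were higher and 3 lower in UNC0642 recovery cells (median 0.20). HMGCS1, an early enzyme of that pathway, differed by -0.45 ± 0.04 between UNC0642 and DMSO recovery (adjusted p = 8.49e-11). Genes of fatty acid oxidation, of which 19 were tested, had 5 higher and 6 lower after DMSO recovery than at 0 h (median -0.03), and 1 higher and 0 lower between UNC0642 and DMSO recovery (median 0.01). CPT1A, which admits fatty acids into mitochondria, was higher by 0.20 ± 0.03 after DMSO recovery than at 0 h (adjusted p = 7.29e-06) and had a value of -0.07 ± 0.03 between the recovery groups (adjusted p = 0.267). The 1 gene of this list called between the recovery groups was CPT1B (log2 0.38 ± 0.09, adjusted p = 0.0104). ETFB had the largest fall of the list after DMSO recovery relative to 0 h (log2 -0.36 ± 0.04, adjusted p = 1.01e-08). Of 12 tested genes that assemble glycerolipids, 4 rose and 2 fell after DMSO recovery (median 0.09), and 1 was lower with UNC0642, LPIN1, a phosphatidate phosphatase (log2 -0.35 ± 0.07, adjusted p = 6.40e-04). All these lists were drawn up with earlier results of these data known, and their counts are to be read beside the shares of all genes given above.

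**Figure D5:**
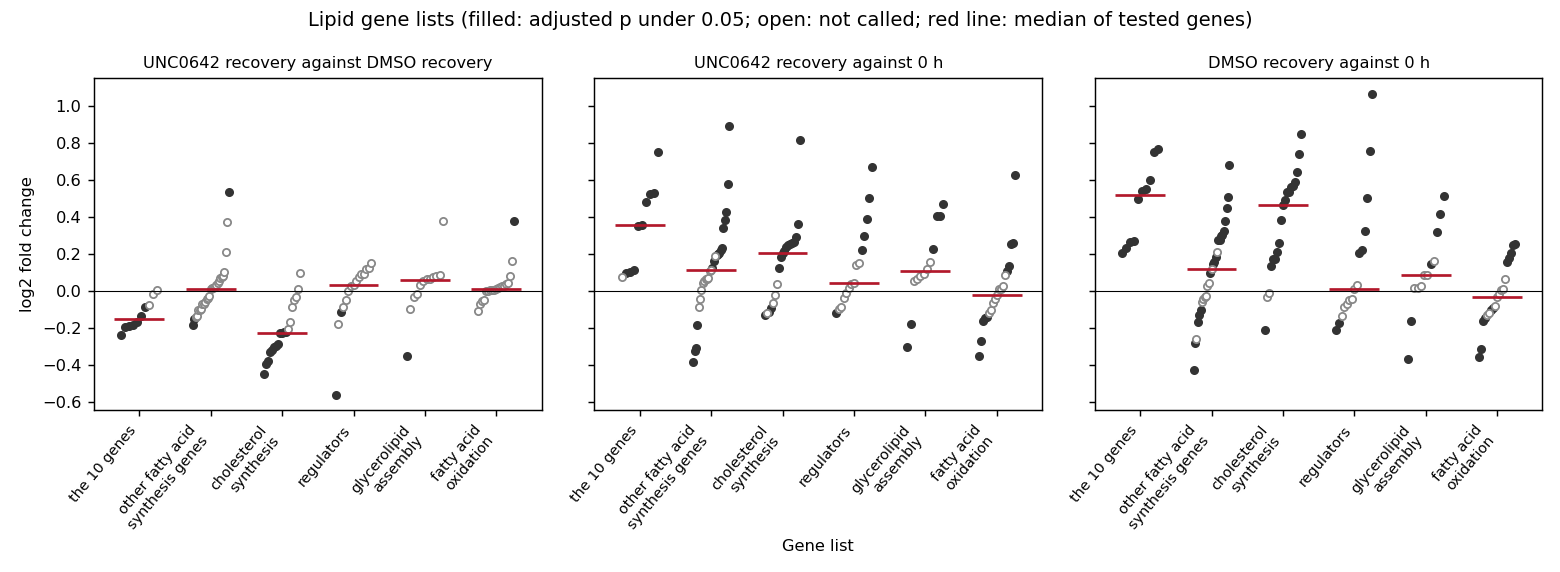
Log2 fold change of each tested gene (points, filled where adjusted p was under 0.05) in 6 lists of lipid genes, with the list median as a red line, for the 3 comparisons. The medians of the 10 genes (-0.15, 0.35 and 0.52 from left to right) and of cholesterol synthesis (-0.23, 0.20 and 0.46) lie farthest from 0.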

How the data were processed

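Trizol was used to extract total RNA, and a company prepared the libraries, per the labels' protocols. The submitters' processing notes name RSEM 1.2.4, Bowtie and hg18. Strandedness is not given in the sources used here. The deposited tables hold expected counts per gene (RSEM estimates that need not be whole) and FPKM values made by the authors, beside gene lengths, per the file headers. Counts were rounded, filtered with filterByExpr (12741 of 18969 genes kept), scaled by TMM and tested with edgeR 4.0.16 (quasi-likelihood, R 4.3.3), all 12 libraries in 1 fit with a mean per group. Tests were two-sided with Benjamini-Hochberg adjustment over all genes tested. Adjusted p are from this test unless another is named, and intervals are 95%. CPM of the genes tested were computed from counts and TMM-scaled totals. Marker sums and the 1 CPM limits for markers and COL1A2 used plain library totals. Depth was 14658082 to 20179847 counts per library, and the biological coefficient of variation was 3.44%.

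Groups came from sample titles and treatment labels. Each of 18 pairs of libraries within a group was further apart than counting error allows (chi-square over its degrees of freedom, 2.04 to 3.56), so no duplicate was found. Same-numbered libraries did not deviate together (correlations -0.103 to 0.0445 over 12 pairs). The 10 genes, side lists, markers, promoter motifs, pairs for ratios and alternatives were chosen with earlier results of these data known. Named were all 10 genes, SREBF1, SREBF2, INSIG1, SCD5, ACACB and FADS3, up to 5 genes of each list with the smallest p (of which the text gives some), and the 5 nearest profiles. Alternatives were other scalings and filters, effective length offsets, a length and GC correction (GC for 99.3% of genes, GENCODE transcripts), unrounded counts, a replicate block, a fit of the 2 groups compared alone, each library left out, gap class, libraries without COL1A2, limma-voom (limma 3.58.1), DESeq2 1.42.0, and FPKM in limma as log2(FPKM + 1) or log2(FPKM + 0.1). Promoters came from RefSeq (GRCh38.p14), and coordinates of the hg18 files were not used.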

Additional observations from a re-analysis of the deposited data

Results flagged for a closer look

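In 4 of 30 sets of 4 libraries (10 genes in 3 groups), the lowest library stood apart from the rest of its group, by a gap to its nearest neighbour above the critical share of the group's range (Dixon's test at 95%). Chance gives such a gap in about 1 in 20 groups. ACACA had 259 CPM in DMSO recovery replicate 4, where the nearest of the other 3 had 268 CPM (gap 0.968 of the range). FADS1 had 72.5 CPM in UNC0642 recovery replicate 4, with 75.8 CPM nearest (gap 0.879). ELOVL5 had 86.4 CPM in 0 h replicate 3, with 92.0 CPM nearest (gap 0.868). ACLY had 469.9 CPM in UNC0642 recovery replicate 1, with 487 CPM nearest (gap 0.840), and the call of ACLY between UNC0642 and DMSO recovery was lost without this library (adjusted p = 0.0699 in edgeR's test).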

How the results depend on the processing

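Of 750 values of the 10 genes under alternative settings, 712 kept their side of the threshold, 36 were no longer called and 2 became called. No called value changed direction, while the uncalled differences of ACSS2, ELOVL5 and FADS2 between the recovery groups took either sign (-0.18 to 0.0014, -0.07 to 0.02 and -0.12 to 0.07). All 10 genes remained called higher in DMSO recovery against 0 h under all 25 alternatives, and 6 to 10 were called higher in UNC0642 recovery against 0 h. Between UNC0642 and DMSO recovery, FASN, SCD and ACACA remained called lower under all 25. The count of genes lower there was 7, and 3 within the long gap libraries, 3 within the short gap libraries and 3 without the 6 libraries with COL1A2, settings that leave fewer libraries (1 of DMSO recovery in the short gap class and 1 of 0 h without those with COL1A2, each assumed to vary like the other groups). Leaving out 1 library gave 5 to 7. Over all genes, DMSO recovery against 0 h had 5617 calls, 2702 within the short gap libraries and 2987 without those with COL1A2, UNC0642 recovery against 0 h had 5990, and 2836 without those with COL1A2, and UNC0642 against DMSO recovery had 584, with 271 (long gap), 125 (short gap), 277 (without COL1A2) and 375 (log2 FPKM with pseudocount 0.1, cause not tested). Rises made up 50.8% of calls in DMSO recovery against 0 h, 67.5% with library totals alone and 68.5% with log2(FPKM + 1). In UNC0642 recovery against 0 h these shares were 49.8%, 67.5% and 67.3%. The median log2 fold change over all genes lay within 0.066 of 0 in every comparison and setting. The replicate numbers did not pair the libraries, and with them as a replicate block none of 39 results changed (5668, 5998 and 633 genes called; 10, 9 and 7 members).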
